A study of Homo sapiens with 8 samples.

Results

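The genes described here are 36 genes of the ATF4 amino acid response, out of 54261 genes in the count table. They were chosen by symbol, as genes of amino acid synthesis, amino acid transport and the integrated stress response, most of which were lower under hypoxia than without treatment in colorectal carcinoma (CRC) cell lines. The hypoxia values therefore chose the genes and are given for them as a description, without a test. Total RNA depleted of ribosomal RNA was sequenced from 8 cultures, 1 library each. The normal group held NCM460 and HIEC6, both labelled as normal intestinal epithelial lines, the CRC group held untreated DLD1, HCT116 and HCT8, and the hypoxia group held the same 3 CRC lines under hypoxia. All 8 cultures were at passage 5 in DMEM with fetal bovine serum, and the oxygen level and the length of hypoxia were not given in the sources used here. Each replicate was another cell line, the error within a group therefore came from differences among lines, and nothing repeated a line within a condition.

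ATF4 is a transcription factor whose translation increases when kinases such as GCN2 (EIF2AK4, activated by uncharged tRNA) and PERK (EIF2AK3, activated by stress in the endoplasmic reticulum) phosphorylate the translation factor eIF2α. Together with C/EBP partners it binds the C/EBP-ATF response element and switches on genes that make amino acids, import them and load them onto tRNA. The same program includes factors that end the response or lead to cell death, such as TRIB3, CHAC1 and DDIT3 (CHOP).

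The response element was looked for because it is the sequence through which ATF4 acts on these genes. RefSeq promoter windows of GRCh38.p14, from 250 bases before to 50 bases after a transcription start, were at hand for 28 of the 36 genes. The letters TGATGNAA, read on both strands, occurred in the windows of 8 of these 28 genes (28.6%) and in those of 1217 of all 27305 genes in the table (4.46%). With 1 more fixed base, TGATGCAA, which is contained in the former motif, they occurred in 5 of the 28 genes (17.9%) and in 1.08% of all genes. The 250 bases before the start of ASNS and CHAC1, among the genes with the lowest levels under hypoxia relative to untreated cells, are shown whole, with the match in capitals. For the other 6 genes the match is shown with its neighbouring bases.
ASNS (chr7:97872409-97872658, minus strand): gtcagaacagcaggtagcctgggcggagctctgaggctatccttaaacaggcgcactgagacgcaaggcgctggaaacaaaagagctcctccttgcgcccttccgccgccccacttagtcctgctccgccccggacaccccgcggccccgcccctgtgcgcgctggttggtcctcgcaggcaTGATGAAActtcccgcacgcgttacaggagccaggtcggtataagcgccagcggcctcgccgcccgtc
CHAC1 (chr15:40953221-40953470, plus strand): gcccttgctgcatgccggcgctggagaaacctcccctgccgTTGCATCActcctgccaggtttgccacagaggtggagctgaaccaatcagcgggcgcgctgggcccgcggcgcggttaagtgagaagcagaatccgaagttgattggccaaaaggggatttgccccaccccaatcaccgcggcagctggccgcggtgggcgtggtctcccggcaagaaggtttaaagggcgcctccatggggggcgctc
CEBPG (chr19:33374060-33374089, plus strand): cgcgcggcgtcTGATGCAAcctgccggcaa
SLC1A4 (chr2:64989381-64989410, plus strand): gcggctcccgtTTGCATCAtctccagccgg
SLC1A5 (chr19:46784893-46784922, minus strand): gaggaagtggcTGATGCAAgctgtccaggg
SLC3A2 (chr11:62881725-62881748, plus strand): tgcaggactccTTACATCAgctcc
SLC7A1 (chr13:29595663-29595692, minus strand): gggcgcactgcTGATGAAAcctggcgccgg
MTHFD1L (chr6:150866346-150866375, plus strand): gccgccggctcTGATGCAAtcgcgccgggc
The match began 68 bases before the start in ASNS and 209 bases before it in CHAC1. In SLC3A2 and SLC7A1 it lay behind the start, 38 and 8 bases on. NUPR1, PSPH, SHMT2, ALDH1L2, PYCR1, GPT2, SLC7A11 and EIF4EBP1 had no window in the table. Averaged over the CRC lines, the log2 difference of hypoxia minus untreated ran from -2.90 to -0.69 in the 8 genes with a match. In the 20 genes with a window but no match it ran from -2.92, the value of PSAT1, to 0.64. Whether a match goes with the difference was not tested. A match in these windows is a description of sequence and not evidence of binding.

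Total counts lay between 45519306 and 57374239 a library, and the floor of 3 counts came to 0.0523 to 0.0659 CPM. CPM are counts divided by the library total, times 1000000, and log2 differences within a line are hypoxia minus untreated of log2(CPM + 1). These floors and all intervals cover counting error only. The untreated and the hypoxia libraries of the CRC lines shared no run label, and run and treatment cannot be told apart. Genes that respond to hypoxia checked the labels: EGLN3, an oxygen-sensing prolyl hydroxylase, was at 6.28 to 10.8 CPM in the untreated CRC lines and at 80.1 to 128 CPM under hypoxia. Across 21647 genes, which are not independent replicates, log2(CPM + 1) of the library labelled NCM460 correlated at 0.989 with that of untreated HCT116 and at 0.876 with that of HIEC6, the other normal line. HIEC6 had 0.18 CPM of EPCAM, a defining epithelial surface marker, and 0.05 CPM of the intestinal factor CDX2. The epithelial markers CDH1 (3.03 CPM), KRT19 (0.99), VIL1 (0.07) and LGALS4 (0) were also low, but KRT8 was at 4290 and KRT18 at 3725 CPM. Of the markers of mesenchymal cells, vimentin (VIM) was at 1223, FN1 at 116.7, COL1A1 at 45.99 and PDGFRB at 8.6 CPM. COL3A1 (1.16 CPM) and COL1A2 (0.46) were low. The markers were thus mixed and do not settle the epithelial label of HIEC6. The comparison with the normal lines is therefore given with and without the library labelled NCM460.

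In every CRC line the summed level of the 36 genes was lower under hypoxia. Untreated DLD1, HCT116 and HCT8 summed to 11100, 8866 and 8156 CPM, and the same lines under hypoxia to 5146, 4602 and 3426 CPM. Of the 36 genes, 28 were lower in all 3 pairs, against 26.4% of the 21045 genes tested, 4 in 2 pairs, 3 in 1 pair and 1 in none. The genes had a median log2 difference of -1.06, -1.34 and -1.25 in DLD1, HCT116 and HCT8, where that of all genes tested was 0.00, -0.17 and 0.00. By at least 1 on the log2 scale, 16 genes were lower in all 3 pairs, against 0.166% of all genes tested, and for 17 genes every hypoxia library lay below every untreated library, against 6.44%. These values belong to the contrast by which the genes were chosen, and nothing is read from them. In bulk RNA, fewer cells that use a gene and less RNA of it per cell cannot be told apart.

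**Figure D1:**
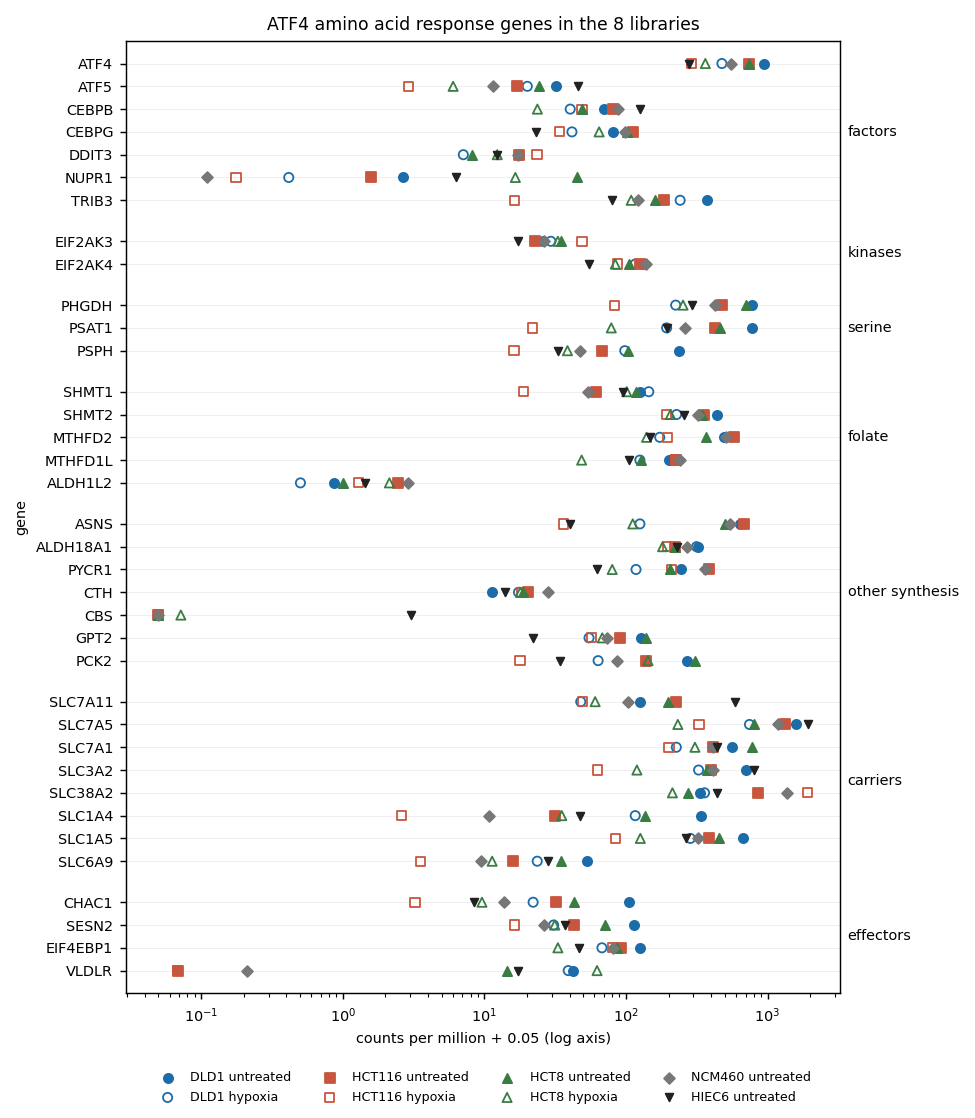
Level of each of the 36 genes in the 8 libraries, as CPM plus 0.05 on a log axis, with filled symbols for untreated and open symbols for hypoxia libraries. For 17 genes, ATF4, ASNS and PHGDH among them, the 3 open symbols lie left of the 3 filled symbols of the CRC lines.

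The transcription factors came first in the pathway. In DLD1, HCT116 and HCT8 ATF4 itself had 951, 734 and 743 CPM without treatment and 476, 290 and 364 CPM under hypoxia. Each line retained between 39.5% and 50.1% of its untreated level, and the highest hypoxia value lay below the lowest untreated value. Its heterodimer partner CEBPG had 81.4, 113 and 101 CPM in DLD1, HCT116 and HCT8 without treatment and 41.5, 33.8 and 64.6 CPM under hypoxia. CEBPB, another C/EBP factor, was at 49.2 to 80.7 CPM and then at 23.7 to 48.9 CPM. Its groups did not overlap, but only just, with HCT116 under hypoxia at 48.9 CPM and untreated HCT8 at 49.2 CPM. Separation of the groups was not examined with TMM scaling, for this or any other gene. ATF5, a paralog of ATF4, was at 31.8, 16.8 and 24.5 CPM and at 20.1, 2.85 and 5.98 CPM under hypoxia, where the DLD1 library overlapped the untreated range. An antisense gene of CEBPB had 89 to 219 counts in the 8 libraries, against 1077 to 7158 of CEBPB, and since the strand of counting is not given, reads of the 2 genes cannot be told apart.

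TRIB3, a pseudokinase that binds ATF4 and damps its activity, separated the lines. Its untreated levels of 372, 185 and 160 CPM in DLD1, HCT116 and HCT8 stood against 242, 16.3 and 109 CPM under hypoxia. HCT116 kept 8.79% of its untreated level, DLD1 64.9% and HCT8 68%. NUPR1, a small stress-induced chromatin protein, was abundant in HCT8 alone among the CRC lines, at 44.9 CPM without treatment and 16.5 CPM under hypoxia, against 2.60 and 0.37 CPM in DLD1 and 1.53 and 0.13 CPM in HCT116. DDIT3, the pro-apoptotic factor CHOP, went the other way in 2 lines: it was at 17.7 CPM and 7.06 CPM in DLD1, but at 17.4 and 23.5 CPM in HCT116 and at 8.15 and 12.3 CPM in HCT8. The log2 difference of DDIT3 was thus -1.21, 0.41 and 0.54 in the 3 lines.

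The 2 kinases upstream of ATF4 had smaller differences. EIF2AK4 (GCN2) was at 130, 126 and 105 CPM in DLD1, HCT116 and HCT8 and at 116, 87.1 and 84.1 CPM under hypoxia. EIF2AK3 (PERK) was at 25.8, 22.6 and 34.5 CPM and at 29.5, 48.9 and 33 CPM under hypoxia, so that HCT116 stood at 216% of its untreated level and the other lines near it. Transcript levels do not measure the activity of either kinase.

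All 3 enzymes of serine synthesis from glycolytic 3-phosphoglycerate were lower in every line. PHGDH, which opens the pathway, was at 779, 476 and 699 CPM in DLD1, HCT116 and HCT8, and at 225, 82.9 and 253 CPM under hypoxia. PSAT1, the transaminase that follows, was at 776, 428 and 459 CPM and at 194, 21.8 and 78.8 CPM. PSPH, the phosphatase of the last step, was at 239, 67.4 and 104 CPM and at 98.1, 16.2 and 38.6 CPM. The largest difference in the 3 enzymes was that of HCT116, in which PSAT1 kept 5.11% of its untreated level, against 25% in DLD1 and 17.2% in HCT8. For PHGDH and PSAT1 the groups did not overlap, whereas PSPH of DLD1 under hypoxia lay above untreated HCT116. The listed pseudogene PSPHP1 had 652 to 1560 counts in the 8 libraries and PSPH 895 to 12233, so that reads of similar sequence may be split between them and the PSPH level is uncertain.

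Folate one-carbon metabolism, which takes up the carbon released from serine, was lower for some enzymes in every line and for others in some lines. MTHFD2, a mitochondrial folate dehydrogenase, was at 494, 584 and 368 CPM in DLD1, HCT116 and HCT8 and at 173, 195 and 140 CPM under hypoxia, a similar retention of 33.5% to 38% in the 3 lines. SHMT2, the mitochondrial serine hydroxymethyltransferase, was at 439, 354 and 343 CPM and at 228, 193 and 206 CPM. Neither of these genes overlapped between the groups. SHMT1, the cytosolic counterpart of SHMT2, was at 126, 61.6 and 118 CPM and at 145, 18.9 and 101 CPM, lower by 1.65 on the log2 scale in HCT116 and higher by 0.21 in DLD1. MTHFD1L, the mitochondrial formate-releasing synthetase, was at 202, 224 and 127 CPM and at 125, 223 and 48.6 CPM, so that HCT116 kept 99.6% of its untreated level, a difference whose sign turned with TMM scaling. ALDH1L2, a mitochondrial formyl-folate dehydrogenase, stayed between 0.45 and 2.39 CPM in the 6 CRC libraries.

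Among the other enzymes of amino acid synthesis, ASNS, which makes asparagine, had the lowest retention. It was at 639, 686 and 505 CPM in DLD1, HCT116 and HCT8 and at 126, 36.3 and 112 CPM under hypoxia, or 19.7%, 5.29% and 22.1% of the untreated level. The 3 hypoxia values lay far below the 3 untreated values. PCK2, the mitochondrial phosphoenolpyruvate carboxykinase, was at 270, 140 and 306 CPM and at 63.6, 17.8 and 143 CPM, with the HCT8 value just above untreated HCT116. GPT2, the mitochondrial alanine transaminase, was at 90.8 to 139 CPM and at 54.9 to 68.1 CPM. PYCR1, which completes proline synthesis, was at 245, 387 and 204 CPM and at 118, 209 and 80.0 CPM, so that its groups overlapped narrowly.

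ALDH18A1, which opens proline synthesis, did not share the difference of PYCR1. It was at 322, 222 and 223 CPM and at 316, 197 and 182 CPM, and its sign turned in DLD1 and HCT116 when CPM were scaled by TMM. CTH, which releases cysteine from cystathionine, was at 11.3, 20.4 and 18.7 CPM and at 17.4, 18.4 and 17.9 CPM. Its difference in HCT116 turned from -0.14 to 0.20 on the log2 scale with that scaling. CBS, the enzyme before CTH, had 0 counts in 6 of the 8 libraries, 1 count in HCT8 under hypoxia and 169 counts in HIEC6. Its near-identical copy CBSL is listed with 0 to 11 counts, so that reads matching both copies may have been lost and the CBS level is uncertain. In the same table U2AF1, a splicing factor with a listed copy of its own, had only 46 to 98 counts.

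Of the 8 amino acid carriers, 7 were lower by at least 1 on the log2 scale in every line. SLC7A11, which imports cystine, was at 125, 225 and 197 CPM in DLD1, HCT116 and HCT8 and at 47.9, 49.5 and 60.6 CPM under hypoxia. SLC7A5 (LAT1), which exchanges large neutral amino acids, was at 1578, 1334 and 807 CPM and at 746, 329 and 233 CPM. SLC3A2, the heavy chain that both need at the membrane, was at 704, 400 and 372 CPM and at 326, 63.1 and 120 CPM. Heavy and light chains thus shared the sign in each line, and none of the 3 genes overlapped between the groups. The listed pseudogene SLC7A5P2 had 567 to 1401 counts against 10589 to 108849 of SLC7A5, and a share of reads between them cannot be told from the counts.

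The neutral amino acid carrier SLC1A5 (ASCT2) was at 666, 386 and 455 CPM and at 285, 84.9 and 126 CPM. SLC1A4 (ASCT1), its paralog, ranged widely between lines, with 339, 31.6 and 135 CPM and, under hypoxia, 116, 2.56 and 35.2 CPM. SLC7A1, the carrier of cationic amino acids, was at 565, 413 and 778 CPM and at 227, 201 and 307 CPM. Each of these was lowest relative to untreated cells in HCT116, except SLC7A1, which was at 39.5% to 48.7% in the 3 lines. SLC6A9, a glycine carrier, kept 44.8% in DLD1, 22.1% in HCT116 and 32.6% in HCT8. SLC38A2 (SNAT2), a sodium-coupled carrier of small neutral amino acids, was the exception: it was at 335, 854 and 276 CPM and at 359, 1928 and 213 CPM, higher by 1.17 on the log2 scale in HCT116 and lower by 0.37 in HCT8.

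The last group held effectors of stress and growth. CHAC1, which degrades glutathione, was at 106, 32.1 and 42.6 CPM and at 22.1, 3.20 and 9.58 CPM under hypoxia, and retained 20.9%, 9.96% and 22.5%. SESN2, which holds back mTORC1 when leucine is scarce, was at 114, 42.7 and 71.5 CPM and at 30.8, 16.2 and 31.4 CPM. The groups of CHAC1 and SESN2 did not overlap. EIF4EBP1, a repressor of cap-dependent translation, was at 125, 92.0 and 86.6 CPM and at 67.7, 80.9 and 33 CPM, and its difference in HCT116 turned from -0.18 to 0.17 on the log2 scale with TMM scaling. VLDLR, a lipoprotein receptor, had 1 count in each HCT116 library, for which no fold is given, and it was at 42.0 and 39.1 CPM in DLD1 and at 14.5 and 62.5 CPM in HCT8.

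**Figure D2:**
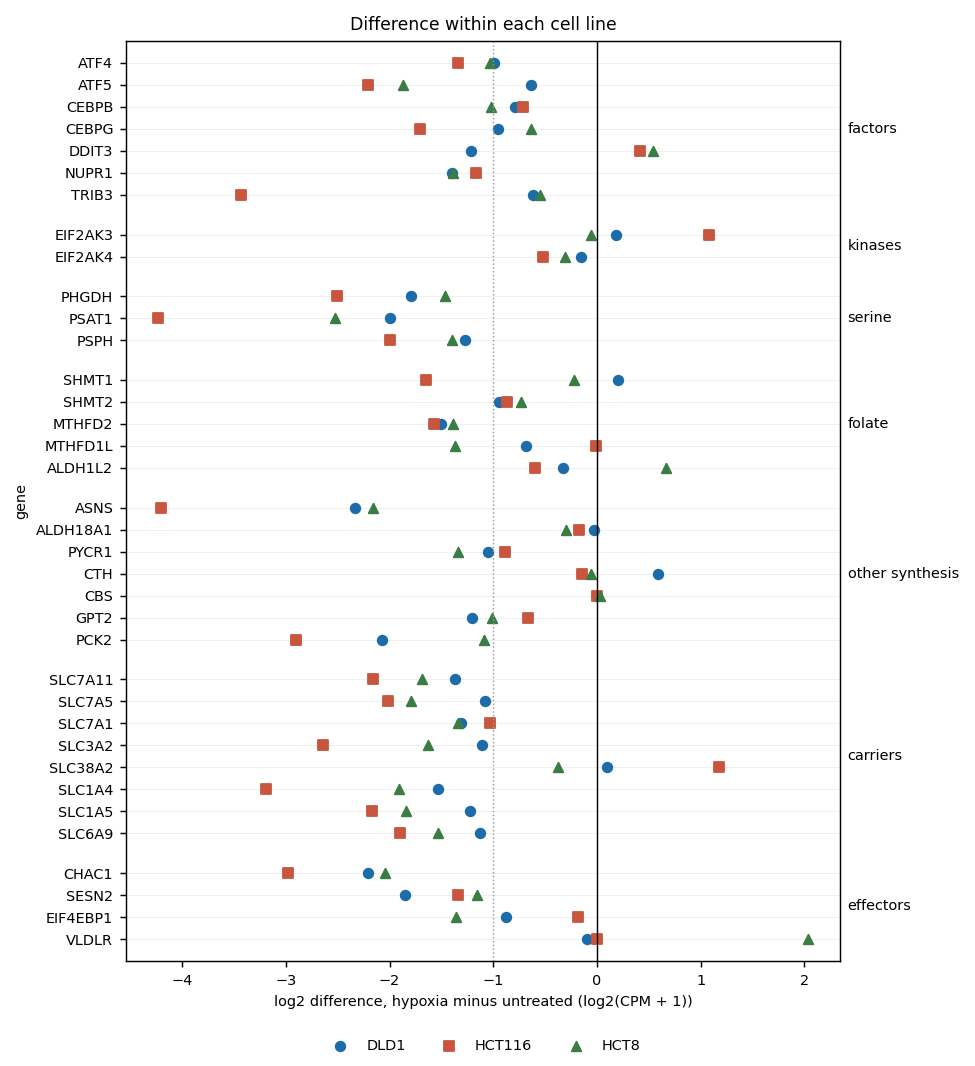
Difference of log2(CPM + 1), hypoxia minus untreated, of each of the 36 genes in DLD1, HCT116 and HCT8, with a solid line at 0 and a dotted line at -1. The HCT116 symbols lie farthest left for 21 genes, with ASNS at -4.20 and PSAT1 at -4.23, while SLC38A2 and EIF2AK3 of HCT116 lie right of 0.

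The size of the difference varied between the lines. Among the 28 genes lower in all 3 pairs, the most negative log2 difference was that of HCT116 for 18, of DLD1 for 4 and of HCT8 for 6, and with 1 pair a line these counts have no replicate error. The hypoxia library of HCT116 was also that in which the 10 largest genes held the most reads, 13.1%, against 6.03% to 8.86% in the untreated CRC libraries. After TMM scaling the median log2 difference of the genes in HCT116 was -1.07, 25 genes were lower in all 3 pairs, and HCT116 no longer had a larger median than HCT8, at -1.24. Markers of mesenchymal cells moved in the same comparison. The summed level of 6 such markers went from 11.6 to 92.8 CPM in DLD1, from 36.6 to 165 in HCT116 and from 15.3 to 24.8 in HCT8, and that of 8 epithelial markers from 11340 to 13430, from 4551 to 5561 and from 8536 to 14040. The sums hide members that went the other way: EPCAM was lower in all 3 lines, at 80.5%, 72% and 90% of the untreated level, CDX2 was at 49.9% in HCT116, and 3 of the 6 mesenchymal markers, VIM among them at 21.4%, were lower in HCT8. The part of these shifts in the values of the 36 genes was not tested.

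In edgeR's quasi-likelihood fit, 35 of the 36 genes had at least 10 counts in at least 2 libraries, and CBS did not. Without the line as a term the fit called 0 of 21045 genes at a Benjamini-Hochberg adjusted p under 0.05 (0%), although 607 had an unadjusted p under 0.05, and DESeq2 called 51. The median log2 fold change of the 35 genes was -0.99 in that fit and 0.06 over all genes, with 30 of the 35 lower. Same-numbered libraries came from the same line, and with the line as a block the fit called 44 genes lower (0.209%) and 156 higher (0.741%). Of the 35 genes it called 16 lower and 0 higher, and DESeq2 with the block called 24 lower, against 3.38% of all genes. By role these 16 were 3 of the 3 serine enzymes, 6 of the 8 carriers, 2 of the 7 transcription factors with TRIB3, 1 of the 5 folate enzymes, 2 of the 6 other enzymes tested, 2 of the 4 effectors and 0 of the 2 kinases. The block fit without the HCT8 pair called 0 of the 35 genes, without the DLD1 pair 12 and without the HCT116 pair 25. Of all genes tested, these fits called 0 of 19739, 114 of 19914 and 277 of 19513 lower, so that the number of calls over all genes varied too. Since the contrast chose the genes, these calls describe the fit and nothing is read from them.

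The fitted values with the block, log2 fold change ± SE (n = 3 pairs), were -0.99 ± 0.17 for ATF4, -2.77 ± 0.34 for ASNS and -2.80 ± 0.36 for PSAT1. CHAC1 was at -2.44 ± 0.23, SLC1A4 at -2.20 ± 0.32 and PCK2 at -1.92 ± 0.29. The highest of the genes were VLDLR at 0.998 ± 0.47, EIF2AK3 at 0.54 ± 0.30 and SLC38A2 at 0.42 ± 0.34. TRIB3, at -1.37 ± 0.49, had a larger error than its neighbours in size, as its 3 pairs differed.

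Genes of the same pathway that were not among the 36 were compared in the same fits, with the line as a block. Most of the cytosolic aminoacyl-tRNA synthetases, which load amino acids onto tRNA, were lower under hypoxia. Of 20 listed genes 19 were tested, and 17 of them were lower in all 3 pairs, against 26.4% of all genes tested. The median log2 fold change of the 19 was -0.73, against 0.03 over all genes tested. The block fit called 4 of the 19 lower and 0 higher, where it called 0.209% of all genes lower, and the fit without the block called 0. DESeq2 with the block called 11 lower and 1 higher, where it called 3.38% of all genes lower and 955 of 21045 higher. The edgeR count was 0 without the HCT8 pair, 3 without the DLD1 pair and 6 without the HCT116 pair, where DARS, named after its values were seen, was called higher. Of all genes tested, the same fits called 0 of 19739, 114 of 19914 and 277 of 19513 lower. Without the DLD1 pair the calls of IARS and SARS were lost. VARS is listed at 0 counts in all 8 libraries and was not compared.

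The 4 synthetases called were those of tyrosine, methionine, isoleucine and serine. YARS fell from 660, 449 and 412 CPM in DLD1, HCT116 and HCT8 to 314, 137 and 162 CPM (log2 fold change -1.24 ± 0.17 SE, edgeR with block, adjusted p = 0.0230). MARS fell from 556, 477 and 434 CPM to 264, 56.7 and 132 CPM (-1.81 ± 0.31, edgeR adjusted p = 0.0420). The hypoxia values of both lay below all untreated values, as they did for IARS (-1.20 ± 0.19, edgeR adjusted p = 0.0351) and SARS (-1.05 ± 0.18, edgeR adjusted p = 0.0420). Of 16 cytosolic synthetases with a window 7 held TGATGNAA on either strand (43.8%), against 4.46% of all genes. No match was found for YARS and SARS, while AARS, CARS, GARS, NARS and TARS held one and were not called by edgeR with the block. The matches of the called genes IARS and MARS are shown with their neighbouring bases.
IARS (chr9:92293692-92293721, minus strand): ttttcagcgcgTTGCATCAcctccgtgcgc
MARS (chr12:57488053-57488082, plus strand): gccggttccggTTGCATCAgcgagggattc

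Of 17 mitochondrial synthetases tested, the block fit over all 3 pairs called 0, with 7 at an unadjusted p under 0.05. The share of all genes at that unadjusted p was not computed for the block fit. Nothing is read from such counts, here or for the lists below. DESeq2 with the block called 3 of the 17 lower, against 3.38% of all genes. The median log2 fold change of the 17 was -0.46, between IARS2 at 0.19 and MARS2 at -1.60 (edgeR adjusted p = 0.0779). MARS2 alone of the list was called without the DLD1 pair (edgeR adjusted p = 0.02) and without the HCT116 pair (0.0476). The eIF2 subunits and the genes that control eIF2, 13 in all, had a median of -0.38 and no call in edgeR or DESeq2 with the block, with 5 at an unadjusted p under 0.05 in edgeR, and ranged in that fit from EIF2B3 at -0.72 to EIF2AK1, the heme-regulated kinase, at 0.28. Of 12 other genes of one-carbon and glycine metabolism 0 were called by edgeR and 4 had an unadjusted p under 0.05. DESeq2 with the block called 1 of them lower, against 3.38% of all genes. Of these 12, MTHFS, which returns formyl-folate to the cycle, was at -0.90 ± 0.73 SE. It had 0.07 to 1.20 CPM in the CRC libraries, with 4 counts in HCT116 under hypoxia. AMT of the glycine cleavage system was at 0.72, a value that rested on HCT8 and turned to -0.16 without that pair.

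Other known targets of ATF4 and CHOP were not lower as a list. The median log2 fold change of the 11 tested was 0.29 with the block. Of the 11, 4 were lower in all 3 pairs, against 26.4% of all genes tested, and nothing is read from this count. Another 4 were higher in all 3, for which the share of all genes was not computed. Both counts include a gene near the floor, named after its values were seen. STC2, counted as higher, had 4 and 11 counts in DLD1 and 10 and 9 in HCT8, untreated and then hypoxia. FGF21, counted as lower, had 4, 0 and 2 counts in DLD1, HCT116 and HCT8 under hypoxia. The block fit called 2 lower, JDP2, a leucine-zipper repressor (-1.50 ± 0.22, edgeR adjusted p = 0.0273), and XPOT, the exportin of tRNA (-0.98 ± 0.17, edgeR adjusted p = 0.0443), where it called 0.209% of all genes lower. DESeq2 with the block called 2 lower and 4 higher, where it called 3.38% of all genes lower and 955 of 21045 higher. Neither JDP2 nor XPOT was called without the DLD1 pair (edgeR adjusted p = 0.0525 for JDP2 and 0.115 for XPOT). In that fit 2 others, DDIT4 and ERO1A, named after their values were seen, were called higher. Without the HCT8 pair 0 genes of the list were called. XPOT was at 273 to 317 CPM without treatment and at 133 to 144 CPM under hypoxia, in a narrow range across the lines. The median turned negative without the hypoxia library of HCT116, at -0.58 in the fit without the block.

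Amino acid carriers beyond the 8 moved in both directions. Of 16 tested the block fit called 1 lower and 1 higher, where it called 0.209% of all genes lower and 0.741% higher. DESeq2 with the block called 3 lower and 1 higher, where it called 3.38% of all genes lower and 955 of 21045 higher. The median log2 fold change was -0.24. SLC43A1, a carrier of branched-chain and other large neutral amino acids, fell from 33.6, 17.5 and 51.4 CPM to 8.98, 2.51 and 9.62 CPM in DLD1, HCT116 and HCT8 (-2.24 ± 0.23, edgeR with block, adjusted p = 0.00750). SLC6A6, the taurine carrier, rose from 154, 89.3 and 151 CPM to 320, 287 and 298 CPM (1.37 ± 0.24, edgeR with block, adjusted p = 0.0467). Without the HCT8 pair neither was called (edgeR adjusted p = 0.167 for SLC43A1 and 0.278 for SLC6A6), and without the DLD1 pair SLC6A6 was not (edgeR adjusted p = 0.0540). Chaperones and folding factors of the endoplasmic reticulum belong to the other arm of the stress response in which PERK takes part. Their list also held other genes of that response, such as XBP1 and EDEM1. Of its 18 genes edgeR with the block called 0, and 4 had an unadjusted p under 0.05, for which no share of all genes was computed. DESeq2 with the block called 1 lower, against 3.38% of all genes. Without the HCT116 pair edgeR called XBP1, named after its values were seen, lower. The median of the 18 genes was 0.15, from HYOU1 at -0.89 to EDEM1 at 0.52.

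**Figure D3:**
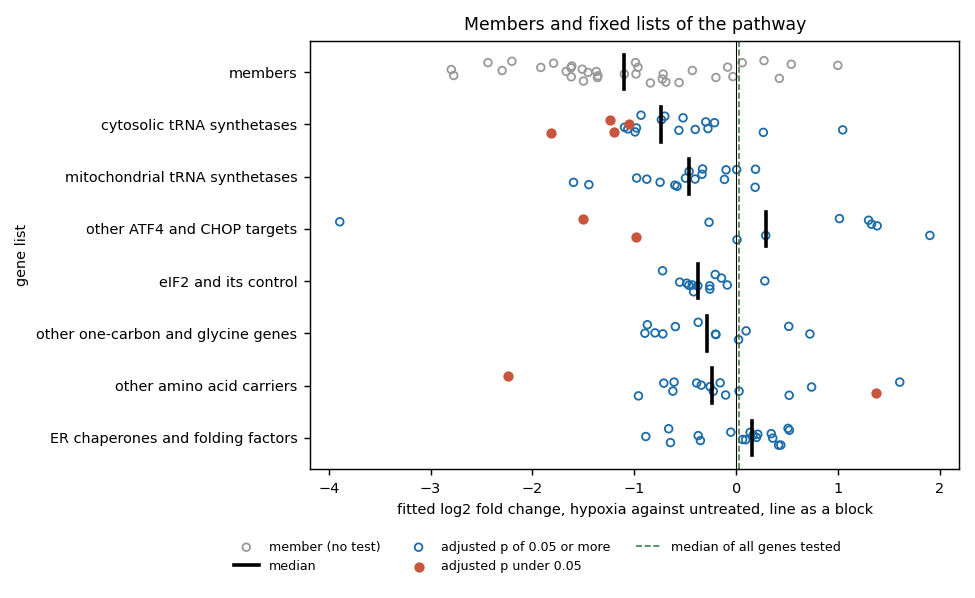
Fitted log2 fold change under hypoxia, with the line as a block, of the 35 genes tested (grey, no test) and of 7 other lists of the pathway, with the median of each list as a black bar and that of all genes tested as a dashed line. Cytosolic tRNA synthetases have their median at -0.73 and 4 filled points (adjusted p under 0.05), and ER chaperones lie around 0 with none.

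The untreated lines were compared to see whether the same 36 genes differ between CRC and normal lines. This contrast chose no gene, but it shares its 3 untreated CRC libraries with the hypoxia contrast. Genes chosen as low under hypoxia relative to these libraries can be high in them by the choice alone, which raises the CRC side here. In the CRC lines 24 of the 35 genes tested had the higher fitted level and 11 the lower, with a median log2 fold change of 0.42, where the median of all 19964 genes was -0.00. edgeR called 0 of the 19964 genes (0%), of which 542 had an unadjusted p under 0.05, and 3 of these, CHAC1, PCK2 and PSAT1, were among the 35. DESeq2 called 131 of all genes (0.656%) and 0 of the 35. Without the library labelled NCM460, which left 1 normal line assumed to vary like the CRC lines, the median of the 35 genes was 0.66.

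For 12 of the 36 genes all 3 CRC lines lay above both normal lines, against 13.2% of all genes tested, and for 1, CEBPB, they lay below both, against 4.99%. Since the choice of the genes can raise the CRC side, nothing is read from these shares. The 12 were ATF4, TRIB3, PHGDH, PSAT1, PSPH, SHMT2, GPT2, PCK2, SLC1A5, CHAC1, SESN2 and EIF4EBP1, among them all 3 enzymes of serine synthesis. ATF4 was at 553 CPM in NCM460 and 279 CPM in HIEC6, against 734 to 951 CPM in the CRC lines. PSAT1 was at 263 and 195 CPM against 428 to 776 CPM, and PCK2 at 85.8 and 34.2 CPM against 140 to 306 CPM. Set against HIEC6 alone, 19 genes were higher in all 3 CRC lines and 6 lower. The share of all genes that separate from HIEC6 in this way was not computed, and nothing is read from these counts.

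SLC1A4 had the highest fitted value of the genes (log2 fold change 2.29 ± 1.22 SE, edgeR adjusted p = 0.999), followed by CHAC1 (2.27 ± 0.68) and NUPR1 (2.0 ± 2.25), both with the same adjusted p in edgeR. CHAC1 was at 13.8 CPM in NCM460 and 8.43 in HIEC6, and at 32.1 to 106 CPM in the CRC lines. NUPR1 rested on HCT8, without which its value was -0.85, and it had only 3 counts in NCM460. The lowest were SLC7A11 (-1.16 ± 0.78), SLC38A2 (-0.995 ± 0.72) and CEBPB (-0.87 ± 0.40), also with an edgeR adjusted p of 0.999. SLC7A11 was at 585 CPM in HIEC6 against 103 CPM in NCM460, and without HIEC6 its value was 0.72. SLC38A2 was at 1362 CPM in NCM460 against 436 CPM in HIEC6, and without NCM460 its value was -0.0643.

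**Figure D4:**
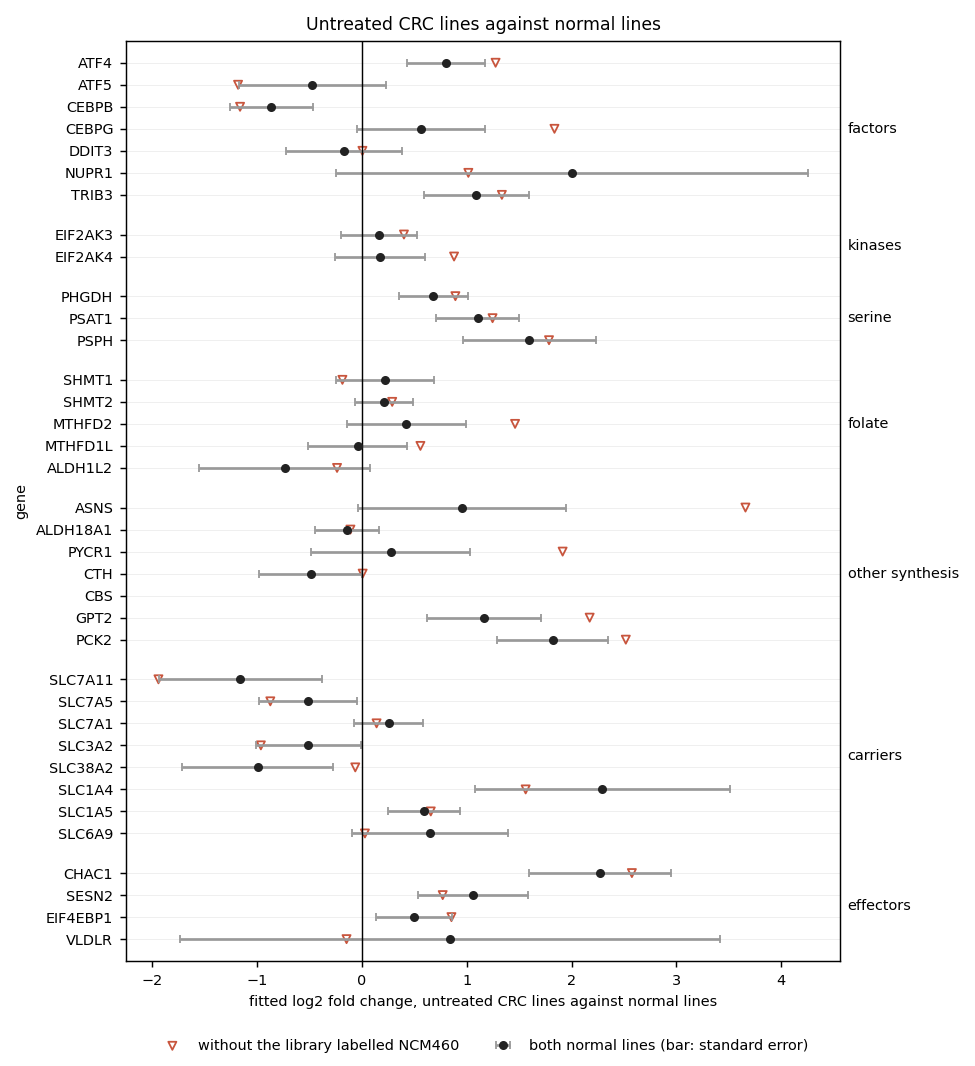
Fitted log2 fold change of 35 genes between untreated CRC and normal lines (black, with standard error) and the same without the library labelled NCM460 (open triangles). CHAC1, PCK2 and PSPH lie right of 0 in both, while ASNS moves from 0.96 to 3.66 and the standard error of NUPR1 and VLDLR exceeds 2 log2 units.

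The order of the 5 untreated lines was not shared by the 36 genes. HIEC6 was lowest for 18 genes, while DLD1 was highest for 16. ASNS was at 543 CPM in NCM460, within the 505 to 686 CPM of the CRC lines, and at 40.5 CPM in HIEC6. PYCR1 had the same order, with 364 CPM in NCM460, 204 to 387 CPM in the CRC lines and 62.5 CPM in HIEC6. The cystine and large neutral amino acid carriers were instead highest in HIEC6, with SLC7A5 at 1919 CPM against 807 to 1578 CPM in the CRC lines and SLC3A2 at 805 CPM against 372 to 704 CPM. Between NCM460 and HCT116, 32 of the 36 genes lay within 1 log2 unit of each other, with a median absolute difference of 0.23, and between NCM460 and HIEC6, 20 did, with a median of 0.97. With 1 library a line, no difference between neighbouring lines in these orders can be set against a replicate error. Shares of all genes were not computed for the counts of highest, lowest and near lines, and nothing is read from them.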

How the data were processed

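Total RNA of 8 cell line cultures was sequenced after removal of ribosomal RNA. The authors aligned the clean reads and deposited a single table of gene counts without normalization. The paper gives GRCh37.p13 as the genome, whereas the submitters' processing notes name GRCh38 and HISAT2 2.0.4, and the table does not settle it. The counter, the annotation, the strand and the handling of reads with several matches were not given in the sources used here. The labels' extraction text names another tissue than cell lines. All columns were used (0 left aside).

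CPM were counts scaled by the column total, and differences used log2(CPM + 1). Genes with 10 or more counts in 2 or more libraries of a comparison were fitted in R 4.3.3 by the quasi-likelihood method of edgeR 4.0.16 with TMM scaling, and p-values were adjusted by Benjamini-Hochberg over all genes fitted (threshold 0.05). The hypoxia fit held the 6 CRC libraries and the other fit the 5 untreated ones. A standard error is the size of the log2 fold change over the root of the F statistic. The fits were run on simulated data with 200 changed genes, of which they recovered 92.5% to 94%. Simulated data for the fits without the block held no differences among lines, unlike these libraries. They do not show how those fits perform here. Each line is 1 culture per condition, and p-values of fits without the block measure the spread among lines. With the block they measure how the hypoxia difference varied from line to line, together with differences between single cultures and libraries. Same-numbered untreated and hypoxia libraries are the same line in the labels. Their deviations from the group means correlated at 0.865 to 0.873, against -0.62 to -0.0979 for unlike lines, and fits with and without a term for the line are both given. The replicate numbers of CRC and normal lines match unlike lines and mark no pairs.

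The genes and lists were chosen with earlier results of these data known. All 36 genes are named. In each other list the genes past the threshold of the block fit are named, at most 4 by size, or else the highest and the lowest, and between CRC and normal lines the 3 highest and 3 lowest of the 36. Alternatives were DESeq2 1.42.0, other scalings, filters and pseudocounts, and each library or pair left out. Promoters are RefSeq windows of GRCh38.p14.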

Additional observations from a re-analysis of the deposited data

Results flagged for a closer look

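For 6 of the 36 genes a line went against another under hypoxia, counting only lines whose 95% counting interval (exact binomial) of the log2 ratio did not include 0. EIF2AK3, lower in HCT8 by 0.06, and the other lines of CTH and VLDLR did not meet this. With 1 pair a line, the difference between lines was not tested for any of them, and values are hypoxia minus untreated in log2(CPM + 1). DDIT3 (CHOP) was lower in DLD1 (-1.21) and higher in HCT116 (0.41) and HCT8 (0.54). SHMT1, the cytosolic serine hydroxymethyltransferase, was higher in DLD1 (0.21) and lower in HCT116 (-1.65) and HCT8 (-0.22). ALDH1L2 was higher in HCT8 (0.66) and lower in DLD1 (-0.32) and HCT116 (-0.60), at no more than 2.39 CPM. CTH was higher in DLD1 (0.59) and lower in HCT116 (-0.14), a sign that turned with TMM scaling. SLC38A2 was higher in DLD1 (0.10) and HCT116 (1.17) and lower in HCT8 (-0.37). VLDLR was higher in HCT8 (2.03) and lower in DLD1 (-0.10).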

How the results depend on the processing

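Under hypoxia the number of genes called was 0 in edgeR without the block, 51 with DESeq2, 200 with the replicate block, 1666 with the block in DESeq2 and 224 with the block and library sizes without the 10 largest genes (chosen after seeing the data). Leaving out 1 library without the block gave 0, and with the block the count was 292 without DLD1, 738 without HCT116 and 6 without HCT8. The median of the 35 genes was -1.09 to -0.83 with 1 library left out, and with the block -1.20 without HCT116 and -1.16 without HCT8. For other ATF4 and CHOP targets the median was -0.58 to 0.95 with 1 library left out and 0.0731 with the block without HCT116. For other carriers it was -0.51 to 0.0974 with 1 library left out, -0.45 with library totals, and with the block -0.46 without HCT116 and -0.00470 without HCT8. For ER chaperones it was -0.12 to 0.28 with 1 library left out, 0.0259 with library totals and -0.0479 with the block without HCT116. Cytosolic synthetases called lower numbered 0 with 1 library left out, 4 with the block, 11 with the block in DESeq2, 4 with the block and the other library sizes, and with the block 3 without DLD1, 6 without HCT116 and 0 without HCT8. AMT turned to -0.16 with the block without HCT8. The median within the HCT116 pair was -1.49 with a pseudocount of 0.1 CPM, -1.07 with TMM scaling and -1.17 less the median of all genes in the pair (chosen after seeing the data). With TGATGCAA alone 5 genes held the element.

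Between CRC and normal lines DESeq2 called 131 genes, and leaving out any 1 library called 0 in edgeR. The median of the 35 genes was 0.65 with a replicate block, whose numbers match unlike lines, and 0.26 to 0.66 with 1 library left out. SLC7A11 ranged from -1.94 to 0.72, the highest without HIEC6, and NUPR1 from -0.85 without HCT8 to 7.82 without HIEC6. The cause of these changes was not tested. Without HIEC6 the normal group was NCM460 alone, where NUPR1 had 3 counts, at the floor. The libraries are deep, but low counts of single genes and 1 library a line and condition are limits.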

Other observations

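The following genes were chosen after their values were seen. DARS, the cytosolic aspartyl-tRNA synthetase, went against its list and was higher under hypoxia in every pair, from 84.9 to 127 CPM in DLD1, from 86.6 to 184 in HCT116 and from 99.7 to 209 in HCT8 (log2 fold change 1.05 ± 0.21 SE with the block, edgeR adjusted p = 0.0649, and 0.0341 without the HCT116 pair). Among the other targets of ATF4 and CHOP, GDF15, a secreted stress cytokine, was higher in all 3 pairs, from 236 to 388 CPM in DLD1, from 343 to 846 in HCT116 and from 93.3 to 144 in HCT8. ERO1A, an oxidase of the endoplasmic reticulum, was also higher in all 3, from 211 to 278, from 168 to 516 and from 140 to 388 CPM. DDIT4, an inhibitor of mTORC1, was at 384 and 339 CPM in DLD1 but went from 244 to 2510 CPM in HCT116 and from 182 to 752 CPM in HCT8.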
